A study of Bos taurus with 8 samples.

Results

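The transcripts of 10 genes were followed in bovine embryonic stem cells (bESCs) on mouse feeders and in feeder-free culture: the AP-1 genes FOS, FOSB, FOSL1, FOSL2, JUN, JUNB and JUND, and the immediate early or stress-induced genes EGR1, ATF3 and MYC. They were chosen by name, as rows of the deposited count table, with earlier results of these data known. All 10 were found among 32637 genes with values. The same 4 XX bESC lines (A, C, D and E), derived from early or full blastocysts, gave 1 RNA-seq library each on irradiated mouse embryonic fibroblasts (MEF, passages 15 to 17) and 1 each on vitronectin without feeders (feeder-free, passages 20 to 22). Cells of both conditions were kept in 5% O2 in NBFR medium, which holds FGF2 and the WNT inhibitor IWR-1. The methods of the study add Activin A for feeder-free culture only, whereas all 8 titles name the medium NBFRA. Feeder, matrix and passage changed together between the conditions, and so did Activin A if the methods hold for these libraries. Their parts in any difference cannot be told apart. The paper refers to a list of sequencing batches and applied no batch correction. The batch of each library is not given in the sources used here. Cells were passaged with TrypLE Express or ReLeSR and with the ROCK inhibitor Y27632, and which library had which reagent is not given in the sources used here. Each line is 1 derivation, so the 4 libraries of a condition stand for 4 lines and not for repeats of a line.

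AP-1 is a family of dimers in which a JUN protein pairs with another JUN protein, a FOS protein or a related ATF protein and binds a short DNA motif. FOS proteins cannot pair with each other and need a JUN partner, whereas JUN proteins can also pair among themselves. Several of these genes are immediate early genes: growth factors such as FGF2, serum, adhesion and cell stress switch them on through ERK, JNK and p38 kinases without new protein synthesis, and their mRNAs are short-lived. FOS and EGR1 are classical targets of ERK acting on the factors SRF and ELK, and in stem cells of this kind FGF and ERK signalling maintains the primed state.

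Libraries held between 44268717 and 54296425 counts on MEF and between 49671478 and 102351560 in feeder-free culture, where line D was the deepest and the other 3 reached at most 51320214. Levels are given as CPM, which are counts scaled to the library's total with TMM factors, and fold changes are feeder-free over MEF on the log2 scale from edgeR. A gene is said to be called when its Benjamini-Hochberg adjusted p over 15744 tested genes was under 0.05 and its fold change was at least 1.5. The unpaired fit held condition alone, and the paired fit added the cell line. As bulk RNA, the libraries cannot tell fewer cells of a type apart from less RNA per cell. The stem cell label was checked on 8 pluripotency markers, of which 7 were tested. POU5F1, the central pluripotency factor, lay between 1725 and 2341 CPM in all 8 libraries, and the summed markers lay between 5066 and 5745 CPM on MEF and between 4346 and 5125 CPM in feeder-free culture, with 0 of the 7 called in either fit. Of these markers 5 had an unadjusted p under 0.05 in the unpaired edgeR fit and were lower in feeder-free culture, as were 11.4% of all genes tested, and 4 had all feeder-free libraries below all MEF libraries, as did 8.36% of genes. SALL4, a pluripotency-associated zinc finger factor, was at −0.58 (adjusted p = 0.0426; paired adjusted p = 0.00614), just short of the fold threshold, and SOX2 and LIN28B, at −0.35 each, had paired adjusted p of 0.0436 and 0.0456.

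All 10 genes had a positive fitted fold change in feeder-free bESCs compared with bESCs on MEF, from 0.57 for JUND to 3.45 for FOS on the log2 scale, with a median of 1.18 against 0.01 over all genes tested. In the unpaired edgeR fit 1 of the 10, FOS, was called higher, where 0.724% of all genes tested were called higher and 1.00% lower. In the paired edgeR fit 5 of the 10 were called higher: FOS, FOSL1, EGR1, ATF3 and MYC. The paired background was 5.52% of genes called higher and 4.53% called lower, and none of the 10 was called lower in either fit (0 also had an unadjusted p under 0.05 in that direction). Each of the 10 had an unadjusted p under 0.05 in the unpaired fit and was higher, as were 10.2% of all genes tested. For FOS, FOSB, FOSL1 and EGR1 all 4 feeder-free libraries lay above all 4 MEF libraries, a separation seen for 6.21% of genes. These 4 genes and ATF3 were higher in every line, as were 20.2% of genes.

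**Figure D1:**
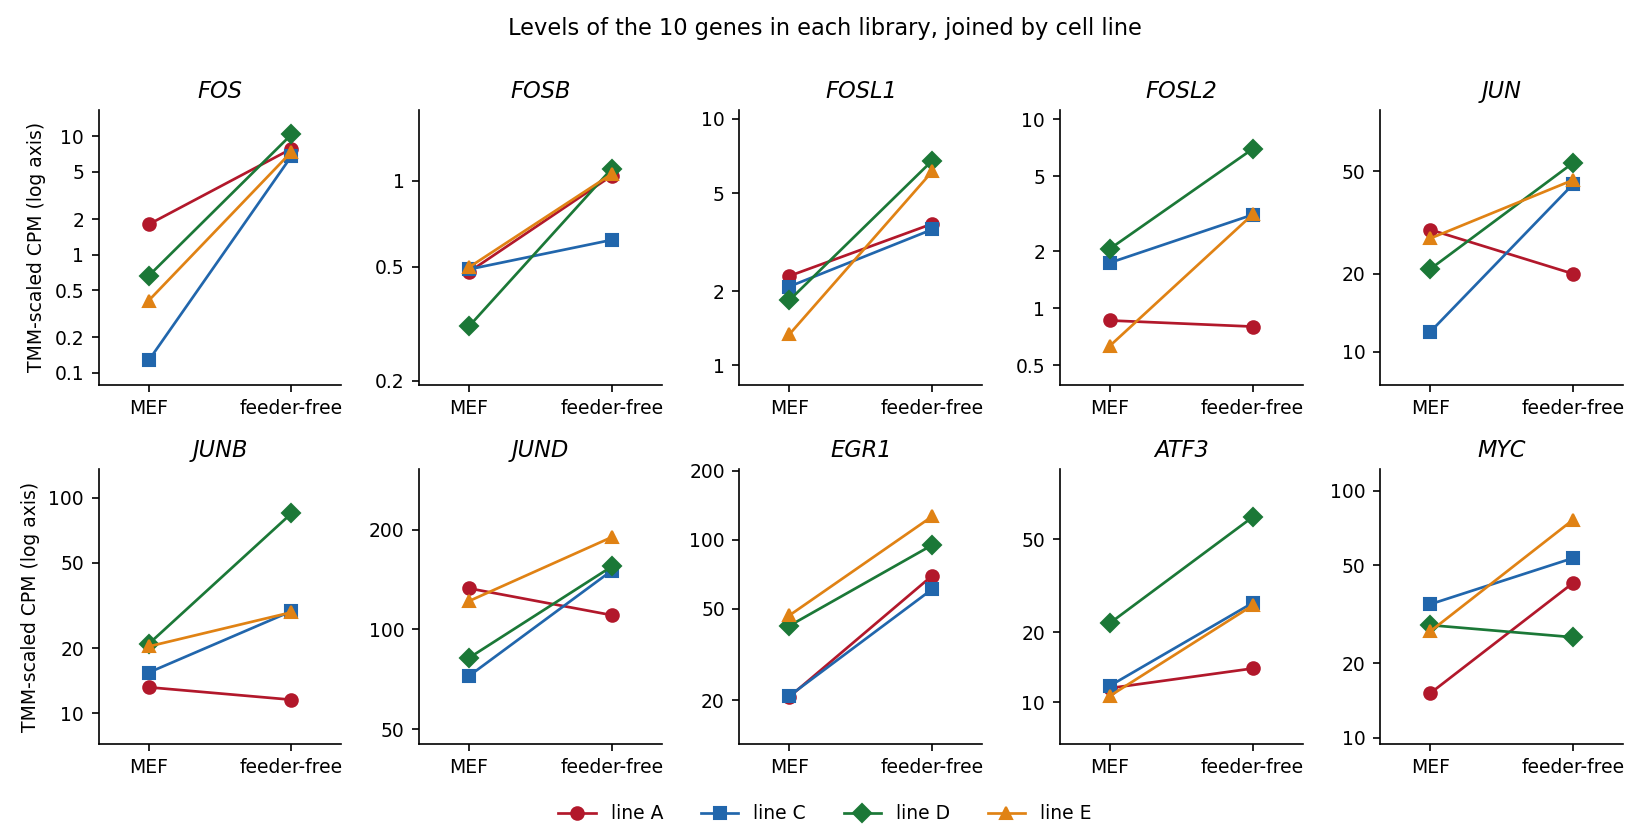
Level of each of the 10 genes in TMM-scaled CPM on a log axis that differs between panels, on MEF (left) and in feeder-free culture (right), with 1 point per library and a line joining the libraries of a cell line. All 4 lines climb for FOS, FOSB, FOSL1, EGR1 and ATF3, whereas line A falls for JUN (29.7 to 20.0 CPM) and by less for FOSL2, JUNB and JUND, and line D falls slightly for MYC.

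FOS (chr10:86488949-86492375, ARS-UCD2.0) encodes c-Fos, the prototype immediate early transcription factor. On MEF it stood at 1.80 CPM in line A, 0.127 in C, 0.661 in D and 0.408 in E, and in feeder-free culture at 7.87, 6.82, 10.4 and 7.41 CPM in the same order. The feeder-free libraries all lay above the highest MEF library and, as ratios, were close together. As ratios the MEF libraries were spread widely, with line A highest and line C lowest. The MEF values rest on few reads, 75, 7, 32 and 18 counts, against 392, 362, 1064 and 385 in feeder-free culture. Whether reads of a pure MEF sample had been removed from these MEF counts is not given in the sources used here. The mean rose from 0.749 ± 0.734 CPM on MEF to 8.12 ± 1.58 CPM (SD, n = 4). The fitted increase was 10.9-fold, or 3.45 on the log2 scale (SE 0.66; adjusted p = 0.0403, edgeR). With the line in the fit the log2 fold change was 3.83 (SE 0.48; adjusted p = 0.00195). Within lines the ratio of CPM ran from 4.37 in line A through 15.7 in D and 18.2 in E to 53.6 in C. On the log scale, though not in CPM, the MEF levels spanned a wider range than the feeder-free levels. The lowest, MEF C, rests on 7 counts. In the unpaired edgeR fit the call was lost when any library other than feeder-free A was left out (adjusted p between 0.0708 and 0.119). Those fits called at most 1 gene higher among all genes tested. In the paired fit the FOS call held without each line in turn.

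FOSL1 (chr29:44006997-44013529) encodes FRA1, a FOS protein without a strong activation domain that is induced later than FOS and is itself driven by AP-1 and ERK. Its levels on MEF were 2.30, 2.09, 1.84 and 1.34 CPM in lines A, C, D and E, and 3.75, 3.56, 6.77 and 6.12 CPM in feeder-free culture. Groups did not overlap, and lines D and E, the lowest on MEF, were the highest without feeders. The log2 fold change of 1.42 (SE 0.31) missed the threshold in the unpaired edgeR fit with an adjusted p of 0.0509 and was called in the paired fit at 1.38 (SE 0.31; adjusted p = 0.0190). The paired call was kept without line A or C and lost without line D (adjusted p = 0.0894) or E (adjusted p = 0.0583).

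FOSB (chr18:53074358-53081311), an immediate early FOS gene known from neurons, rested on 15 to 27 counts per MEF library and 33 to 113 per feeder-free library. It measured 0.480, 0.490, 0.310 and 0.498 CPM on MEF in lines A, C, D and E and 1.04, 0.622, 1.10 and 1.06 CPM without feeders. The groups did not overlap, but the gap between MEF E and feeder-free C was small. The log2 fold change was 1.10 (SE 0.36; adjusted p = 0.121) in the unpaired fit and 1.09 (SE 0.43; adjusted p = 0.114) in the paired edgeR fit, so it was called in neither.

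FOSL2 (chr11:71337128-71360069) encodes FRA2, the other late FOS protein. Its levels were 0.864, 1.74, 2.06 and 0.634 CPM on MEF in lines A, C, D and E and 0.803, 3.13, 6.96 and 3.14 CPM in feeder-free culture. Line A had nearly the same level in both conditions, the other 3 lines were higher without feeders, and the groups overlapped through feeder-free A. The log2 fold change of 1.40 (SE 0.62; adjusted p = 0.227) became 1.22 (SE 0.39; adjusted p = 0.0630) in the paired edgeR fit. Without feeder-free D it fell to 0.83 in the unpaired fit.

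The make-up of the FOS family moved as well. FOS gave 33.0% of the family's counts on MEF in line A (95% Wilson interval 27.2 to 39.4), 2.86% in C (1.39 to 5.78), 13.6% in D (9.77 to 18.5) and 14.2% in E (9.16 to 21.3). In feeder-free culture it gave 58.4% in A (54.7 to 62.1), 48.3% in C (44.7 to 51.8), 41.2% in D (39.3 to 43.1) and 41.8% in E (38.7 to 45.0). FOS was thus the largest contributor of counts in every feeder-free library and in none of the MEF libraries. On MEF FOSL1 led in lines A, C and E and FOSL2 in line D. The intervals of the leading gene and the next overlapped on MEF in lines A, C and D, so the order there was not resolved. In line A these were FOSL1 (36.0 to 48.8) and FOS (27.2 to 39.4). FOSL1 gave 37.7 to 46.9% on MEF and 25.2 to 34.5% without feeders although its own level was higher there, and FOSL2 gave 15.9 to 42.4% and then 5.96 to 27.6%. Intervals cover counting error only, and since the genes differ in length these are shares of counts and not of molecules.

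**Figure D2:**
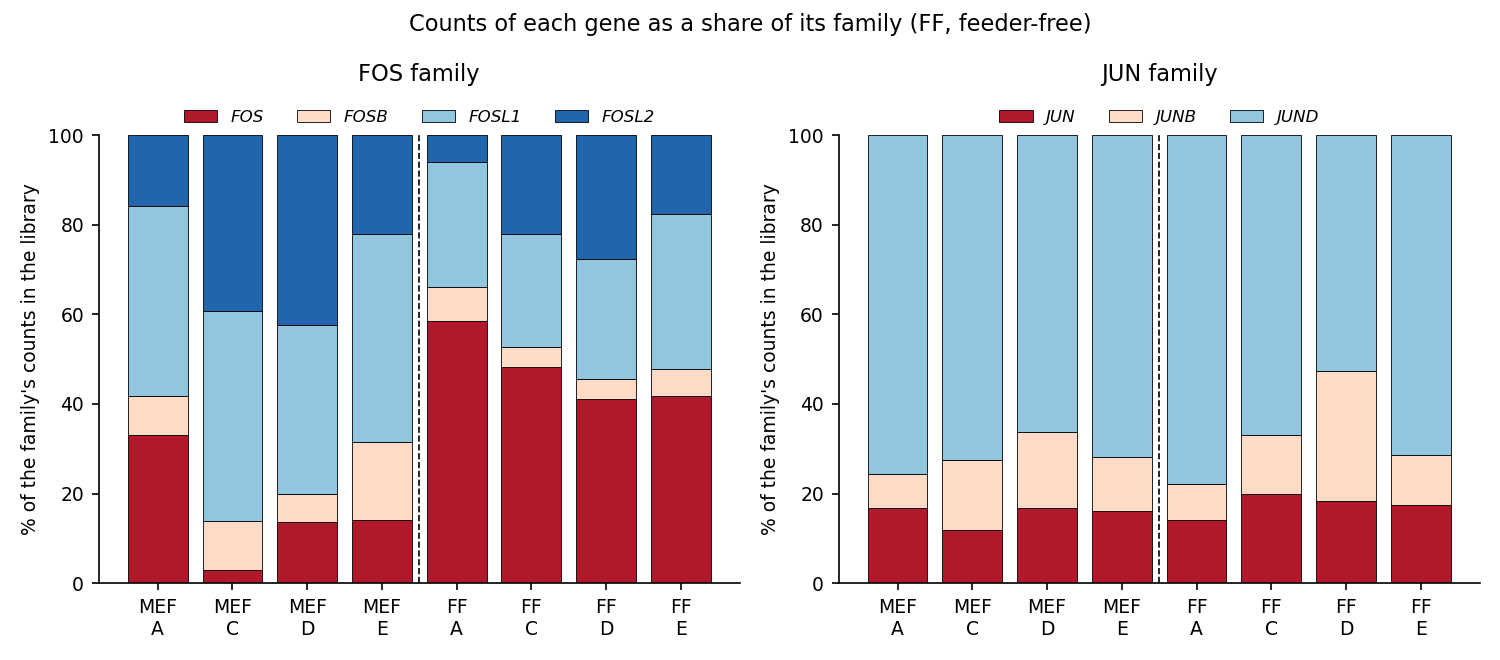
Stacked bars give each gene's share, in percent, of the counts of the FOS family (left) and the JUN family (right) in each of the 8 libraries, with MEF to the left of the dashed line and feeder-free (FF) to the right. FOS widens from 2.86 to 33.0% of its family on MEF to 41.2 to 58.4% without feeders, while JUND stays the widest part of its family throughout and JUNB widens to 28.9% in feeder-free D.

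JUN (chr3:87265962-87268009) encodes c-Jun, the main partner of FOS proteins and the substrate of JNK. It stood at 29.7, 11.9, 20.9 and 27.5 CPM on MEF in lines A, C, D and E and at 20.0, 44.6, 53.9 and 46.3 CPM in feeder-free culture. Line A was lower without feeders and the other 3 lines were higher, so that feeder-free A lay within the MEF range. The log2 fold change was 0.87 (SE 0.34; adjusted p = 0.181) and 0.88 (SE 0.33; adjusted p = 0.0942) in the paired edgeR fit, and neither was called.

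JUNB (chr7:12736074-12737893) encodes a JUN protein that activates weakly by itself and can oppose c-Jun. On MEF the values of lines A, C, D and E were 13.2, 15.5, 21.0 and 20.4 CPM, and in feeder-free culture 11.6, 29.8, 84.9 and 29.4 CPM. Feeder-free D stood far above the others, feeder-free A was the lowest of all 8 libraries, and lines C and E were moderately higher without feeders. The log2 fold change of 1.15 (SE 0.50; adjusted p = 0.219) was 0.83 (SE 0.29; adjusted p = 0.0778) in the paired edgeR fit. Without feeder-free D it fell to 0.43 in the unpaired fit. Thinning that library to the depth of the others gave 1.16. Thinning keeps each gene's expected share of a library, so it could not decide whether depth mattered for JUNB.

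JUND (chr7:4912209-4913961) is the JUN gene that many cells keep on at rest, and its span overlaps IQCN, so that reads of the overlap could not be assigned without the strand setting. Its levels were 133, 72.4, 82.1 and 122 CPM on MEF in lines A, C, D and E and 110, 151, 155 and 190 CPM without feeders. Line A again was lower in feeder-free culture and the other 3 lines were higher. Its log2 fold change of 0.57 (SE 0.23; adjusted p = 0.193), and of 0.59 (SE 0.19; adjusted p = 0.0673) in the paired edgeR fit, was the smallest of the 10.

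The 3 JUN genes have a single exon, so their levels can be compared per kilobase of gene. JUND was highest in all 8 libraries, between 41.3 and 75.9 CPM per kilobase on MEF and between 63.0 and 108 in feeder-free culture. JUN lay between 5.82 and 14.5 on MEF and between 9.78 and 26.3 without feeders, and JUNB between 7.25 and 11.5 and between 6.35 and 46.6, so JUN and JUNB could not be ordered beyond their spread. JUND gave 66.2 to 75.6% of the family's counts on MEF and 52.7 to 77.8% in feeder-free culture, the lowest share being that of feeder-free D. JUN gave 11.9 to 16.9% on MEF and 14.1 to 19.8% in feeder-free culture. Within lines its share was higher without feeders in C (11.9 to 19.8%), D and E and lower in A (16.9 to 14.1%).

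EGR1 (chr7:49826725-49829568) encodes a zinc finger factor that growth factors induce within minutes and that serves as a readout of ERK activity. On MEF it measured 20.8, 21.0, 42.3 and 46.9 CPM in lines A, C, D and E, and in feeder-free culture 69.8, 61.0, 94.9 and 126 CPM. Every feeder-free library lay above every MEF library, and lines D and E were above A and C in both conditions. The log2 ratios of the lines, 1.75 in A, 1.54 in C, 1.17 in D and 1.43 in E, were the most uniform of the 10 genes. The log2 fold change was 1.43 (SE 0.33) with an adjusted p of 0.0565 in the unpaired edgeR fit, where the difference between lines counts as error, and 1.47 (SE 0.13; adjusted p = 0.000346) in the paired fit, where EGR1 was called and stayed called without each line in turn.

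ATF3 (chr16:70924499-70937427) encodes a stress-induced factor that pairs with JUN proteins and represses many of its targets. It stood at 11.5, 11.8, 21.8 and 10.6 CPM on MEF in lines A, C, D and E and at 14.0, 26.6, 62.1 and 25.997 CPM in feeder-free culture. Line D was the highest in both conditions, line A changed least, and the groups overlapped because MEF D exceeded feeder-free A. The log2 fold change of 1.21 (SE 0.43; adjusted p = 0.144) was 1.07 (SE 0.19; adjusted p = 0.00797) in the paired edgeR fit, which called it, also without each line in turn. Without feeder-free D the unpaired log2 fold change was 0.67.

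MYC (chr14:12653171-12658366) encodes a growth-promoting factor that binds DNA with MAX and that serum and FGF signals induce soon after FOS. Its values on MEF were 15.1, 34.7, 28.6 and 26.9 CPM in lines A, C, D and E, and 42.3, 53.4, 25.5 and 76.3 CPM in feeder-free culture. Lines A, C and E were higher without feeders, whereas line D was slightly lower, and the groups overlapped through feeder-free D. The log2 fold change was 0.91 (SE 0.34; adjusted p = 0.162) and 0.86 (SE 0.25; adjusted p = 0.0455) in the paired edgeR fit. That paired call was kept when line D was left out and lost without line A, C or E.

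**Figure D3:**
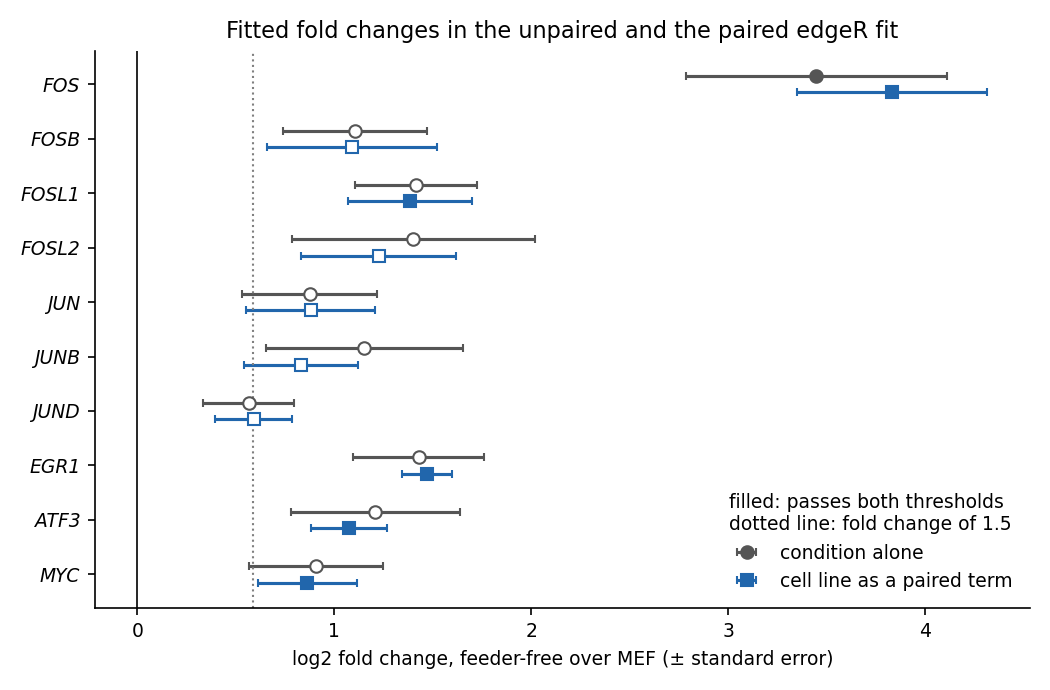
Points give the fitted log2 fold change, feeder-free over MEF, of each of the 10 genes with bars of 1 standard error, for the unpaired fit (circles) and the paired fit (squares), with filled symbols for genes called and a dotted line at a fold change of 1.5. FOS stands apart at 3.45 and 3.83, most other genes lie near 1, JUND lies at the dotted line, and the paired bar of EGR1 is the shortest.

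The 4 lines differed in how far the genes moved together. The median log2 ratio over the 10 genes was 0.49 in line A, 1.00 in C, 1.61 in D and 1.36 in E, against medians between −0.003 and 0.009 over all genes tested in those lines. In line A, FOS, FOSB, FOSL1, EGR1 and MYC had ratios of 0.69 to 2.11, ATF3 was at 0.28, and FOSL2, JUN, JUNB and JUND were between −0.57 and −0.10. In line C, FOS reached 5.39 and JUN 1.90, the largest JUN ratio, while FOSB was at 0.32. In line D, JUNB was at 2.01 and MYC at −0.16, and in line E FOSL1 and FOSL2 were at 2.17 and 2.24. In the paired edgeR fit JUN, JUNB, JUND and FOSL2 were called when line A was left out and not when line C, D or E was. For JUN the adjusted p was 0.00720 without A and between 0.174 and 0.328 without another line, and MYC lost its call without A (adjusted p = 0.144). Each line had 1 library per condition, so a difference between lines was not tested.

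**Figure D4:**
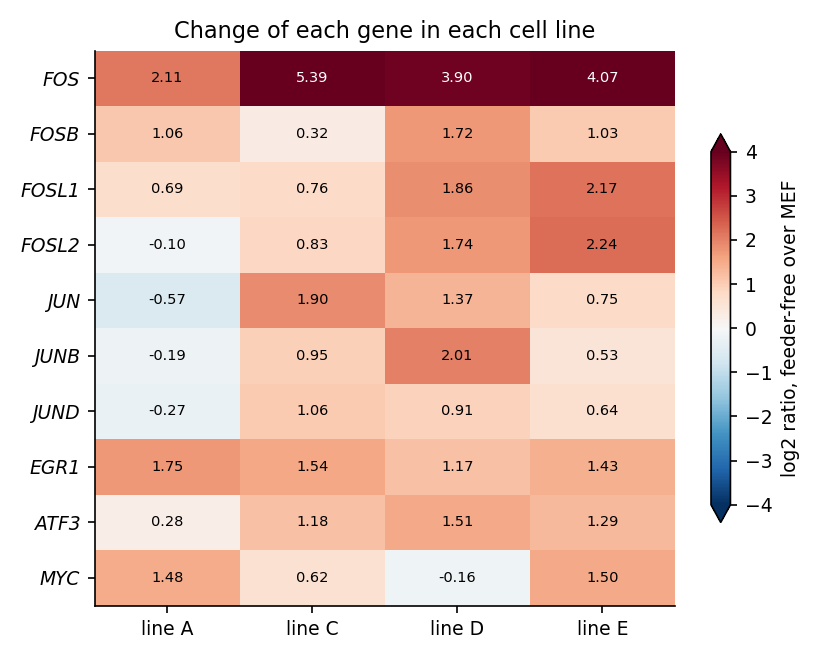
Heat map of the log2 ratio of CPM, feeder-free over MEF, for the 10 genes (rows) in the 4 cell lines (columns), with the ratio printed in each cell and the colour scale ending at 4. The FOS row is darkest, from 2.11 in line A to 5.39 in line C, the EGR1 row is the most even, and negative cells occur in line A for FOSL2, JUN, JUNB and JUND and in line D for MYC.

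Of 34 further immediate early and feedback genes, 31 were tested. In the unpaired fit 2 were called higher and 0 lower, against 0.724% and 1.00% of all genes tested. In the paired edgeR fit 18 were called higher and 0 lower, against 5.52% and 4.53%. In every line 16 were higher, as were 20.2% of all genes tested, and 1 was lower, as were 3254 of 15744. Their median log2 fold change was 0.88. By line the median log2 ratio was 0.09 in A, 0.48 in C, 1.09 in D and 1.03 in E. ZFP36, whose protein degrades AU-rich mRNAs such as that of FOS, lay between 11.4 and 15.4 CPM on MEF and between 20.8 and 61.9 CPM in feeder-free culture and rose by 1.76 (adjusted p = 0.0331; paired 1.67, adjusted p = 0.00167). SPRY4, a feedback inhibitor of FGF and ERK signalling, lay between 33.2 and 94.6 CPM on MEF and between 122 and 283 CPM without feeders and rose by 1.75 (adjusted p = 0.0471; paired 1.78, adjusted p = 0.000204). Neither gene's groups overlapped.

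CCN1, an adhesion-linked secreted protein and a target of SRF and YAP, had the largest change on this list. It stood at 8.31, 25.2, 55.0 and 15.6 CPM on MEF in lines A, C, D and E and at 31.9, 267, 587 and 105 CPM in feeder-free culture. It was higher in every line, although MEF D exceeded feeder-free A, and its log2 fold change of 3.25 (adjusted p = 0.0784) was 2.90 in the paired edgeR fit (adjusted p = 0.000298). Among the others called in the paired fit were the ERK phosphatase DUSP5 at 1.99 (adjusted p = 0.00196), the small GTPase RHOB at 1.86 (adjusted p = 0.00371), the EGR1 relative EGR3 at 1.63 (adjusted p = 0.0171), the neuronal immediate early gene ARC at 1.67 (adjusted p = 0.0443) and the stress gene GADD45B at 1.41 (adjusted p = 0.0237). All 5 were higher in every line, as were 20.2% of all genes tested. The paired call that picked them favours such agreement. GADD45B barely rose in line A (2.88 to 3.07 CPM), and ARC rested on 6 counts in MEF A and 10 in MEF E. Other genes of the list lay near 0: the ERK and p38 phosphatase DUSP1 was at 0.05, the orphan receptor NR4A2 at −0.04 and SPRY2 at −0.01 in the unpaired fit, with none called. KLF10, a TGF-β-induced factor, was at −0.46 (adjusted p = 0.0653; paired adjusted p = 0.0341), short of the fold threshold, and all 4 feeder-free libraries lay below the 4 MEF libraries. These 4 genes were singled out after their values were seen. EGR4, NR4A3 and DUSP2 had too few counts to be tested.

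**Figure D5:**
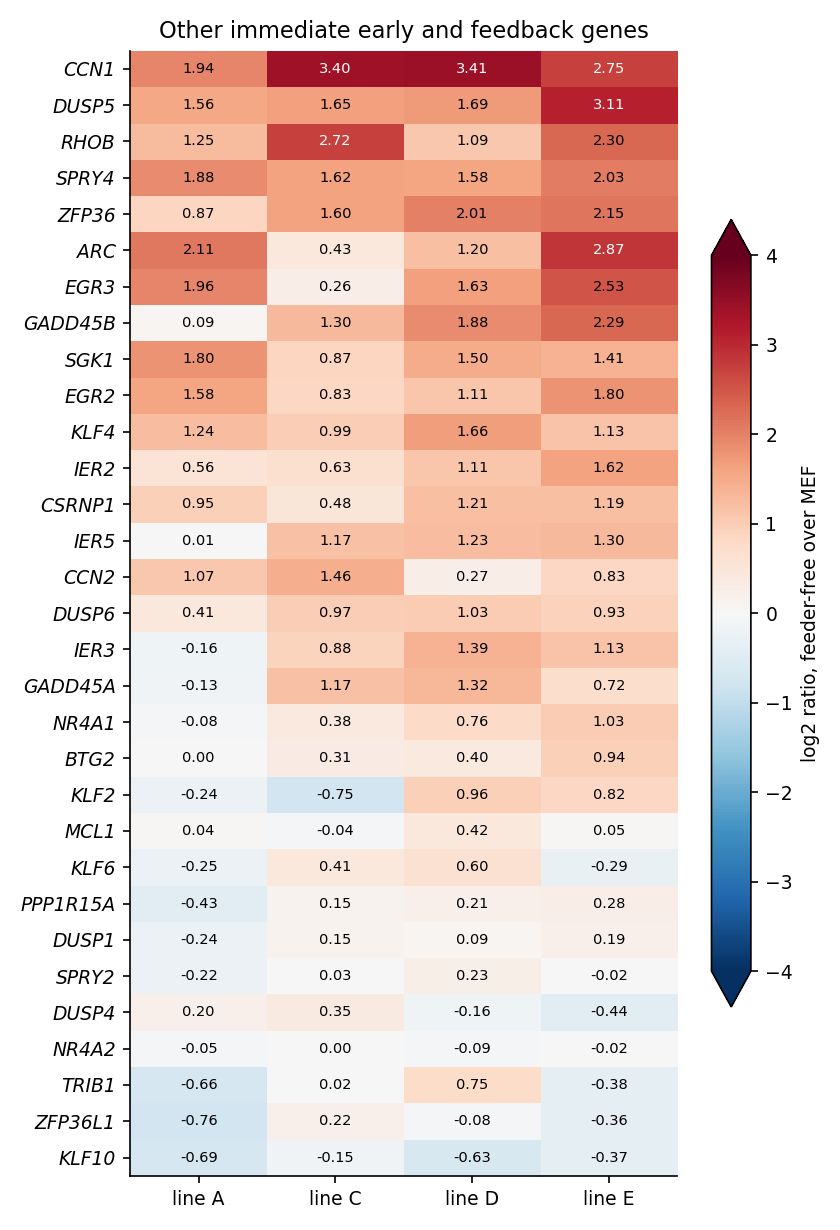
Heat map of the log2 ratio of CPM, feeder-free over MEF, of the 31 tested immediate early and feedback genes outside the 10 (rows, ordered by their change) in the 4 cell lines (columns), with the ratio printed in each cell. CCN1, DUSP5, RHOB, SPRY4 and ZFP36 at the top are positive in every line, and KLF10 at the bottom is negative in every line.

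Of 16 further AP-1 partners, which are leucine zipper factors of the ATF, CREB, BATF and MAF kinds, 15 were tested. In the unpaired fit 0 were called higher and 1 lower, against 0.724% and 1.00% of all genes tested. In the paired edgeR fit 5 were called higher and 2 lower, against 5.52% and 4.53%. ATF7, a constitutive relative of ATF2, lay between 35.4 and 54.7 CPM on MEF and between 24.9 and 27.2 CPM in feeder-free culture and fell by 0.80 (adjusted p = 0.0391; paired adjusted p = 0.00806), without overlap of the groups. ATF4, the translation-controlled factor of the amino acid and unfolded protein response, lay between 151 and 225 CPM and between 299 and 378 CPM, a log2 fold change of 0.71 (adjusted p = 0.0510) and of 0.72 in the paired fit (adjusted p = 0.00619). JDP2, a JUN-binding repressor, was at 0.90 in the paired fit (adjusted p = 0.0417), and its groups did not overlap either. BATF3 at 2.03, CREB5 at 1.94 and MAFF at 0.90 were the other genes called higher in the paired fit. BATF3 and CREB5 reached at most 3.66 and 7.19 CPM in any library, and CREB5 and ATF7 overlap other annotated genes.

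The MYC network had 10 genes, all tested, with 0 called in either direction in the unpaired fit. In the paired edgeR fit 1 was called higher and 2 lower, against 5.52% and 4.53% of all genes tested. MYCN, the MYC gene typical of embryonic cells, lay between 169 and 274 CPM on MEF and between 141 and 236 CPM in feeder-free culture, with a log2 fold change of −0.27 (adjusted p = 0.465), and MYCL was at −0.55 (adjusted p = 0.0973). MYC itself was thus higher in 3 lines without feeders while MYCN was higher in 1 and MYCL in 0. MAX, the shared partner, was at −0.19 (adjusted p = 0.455). MXI1 and MXD1, which compete with MYC for MAX, were called lower in the paired fit at −1.13 (adjusted p = 0.00590) and −0.78 (adjusted p = 0.0202). Both were lower in every line, as were 3254 of 15744 genes tested. The span of MXI1 overlaps another annotated gene. MLX, the partner of a parallel network, was called higher at 0.60 (adjusted p = 0.0249), and its span overlaps PSMC3IP. The corepressors that EGR factors recruit, NAB1 and NAB2, were at −0.05 and 0.61, and neither was called in either fit. NAB2 had a paired adjusted p of 0.0483 at a fold change just under the threshold, and its span overlaps STAT6.

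The 24 genes upstream ran from RAS and RAF through MEK, ERK, JNK and p38 to SRF and its cofactors. Their median log2 fold change was −0.07, with values between −0.38 and 0.81. In the unpaired edgeR fit 0 were called, and 2 had an unadjusted p under 0.05 in each direction. At that p 10.2% of all genes tested were higher and 11.4% lower. SRF, which drives FOS and EGR1, was at 0.66 (adjusted p = 0.165) and was called in the paired edgeR fit at 0.62 (adjusted p = 0.0141), with ratios of 0.22, 0.59, 0.77 and 0.89 in lines A, C, D and E. The neuronal JNK gene MAPK10 was the other gene called there, at 0.88 (adjusted p = 0.0316), and reached at most 7.60 CPM. That fit called 5.52% of all genes tested higher. These are transcript levels, and kinase activity was not measured.

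Of 18 genes known as AP-1 targets, 12 were tested, with a median log2 fold change of 1.36. By line the median log2 ratio was 0.04 in A, 1.56 in C, 2.07 in D and 0.68 in E. In the unpaired edgeR fit 0 were called. In that fit 8 had an unadjusted p under 0.05 and were higher, as were 10.2% of all genes tested. In the paired edgeR fit 4 were called higher and 1 lower, against 5.52% and 4.53% of all genes tested. MMP3, the matrix protease stromelysin and a textbook AP-1 target, stood at 0, 0.145, 0.826 and 0.0453 CPM on MEF in lines A, C, D and E and at 0.642, 12.1, 47.0 and 3.00 CPM in feeder-free culture. Each line was higher without feeders, and feeder-free A lay below MEF D. Its log2 fold change was 5.92 (adjusted p = 0.0671) and 6.04 in the paired fit (adjusted p = 2.04e-05). SPP1, the secreted matrix protein osteopontin, ran from 0.432 to 5.91 CPM on MEF and from 2.19 to 123 CPM without feeders, with a paired log2 fold change of 3.70 (adjusted p = 0.000298). PLAU, the urokinase protease, ran from 0 to 0.508 and from 0.602 to 8.99 CPM, without overlap, at 3.20 (paired adjusted p = 0.0149). For all 3 genes feeder-free D was the highest library and feeder-free A the lowest of its group. HMOX1, an oxidative stress enzyme, was called at 1.62 (paired adjusted p = 0.0122), and CCND1, which encodes cyclin D1 and overlaps LTO1, lay between 21.0 and 31.6 CPM on MEF and between 6.12 and 28.3 CPM without feeders and was called lower in the paired fit (adjusted p = 0.0388), being lower in lines A, C and E. MMP1, MMP13, AREG, EREG, IL6 and CXCL8 did not pass the filter on low counts, with 0 counts in every library for IL6 and CXCL8.

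Of 14 MYC targets 13 were tested, and 0 were called in either fit, with a median log2 fold change of 0.03 (in the unpaired edgeR fit 2 had an unadjusted p under 0.05 and were higher). Of 13 heat shock genes 0 were called in the unpaired fit (2 with an unadjusted p under 0.05, both higher) and 1 in the paired fit, HSPH1, a chaperone of the HSP110 kind, at 0.75 (adjusted p = 0.00844). The heat shock median was 0.27. Over all genes tested, 10.2% had an unadjusted p under 0.05 in the unpaired edgeR fit and were higher. The paired fit called 5.52% higher.

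Genes whose levels followed those of FOS, JUN, EGR1 and MYC were looked for by Pearson's correlation of log2 CPM over the 8 libraries, which share lines and fall into both conditions, so that the values are descriptions. Closest to FOS were VIPR2, a receptor of vasoactive intestinal peptide (r = 0.993), ITGA8, an integrin subunit (r = 0.985), and GCH1, an enzyme of biopterin synthesis (r = 0.981). Among those closest to JUN were the homeobox gene MSX2 (r = 0.996) and KLK6 (r = 0.949). Like JUN, both were higher in 3 of 4 lines. Closest to EGR1 were SNX10 (r = 0.980), ATG3 (r = 0.965) and OAF (r = 0.963), and closest to MYC were LRTM2 (r = 0.948), LOC132346367 (r = 0.927) and TNFRSF11A (r = 0.927). SNX10 and LRTM2 overlap other annotated genes. By Spearman's rank correlation ITGA8 was only in place 63 for FOS, LOC132346367 in place 29 and TNFRSF11A in place 68 for MYC, and OAF in place 25 for EGR1.

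Markers of other cells were measured beside these genes. Of 17 fibroblast markers 15 were tested, and 0 were called in the unpaired edgeR fit (2 had an unadjusted p under 0.05 in each direction). At that p 10.2% of all genes tested were higher and 11.4% lower. In the paired fit 2 markers were called higher and 2 lower, against 5.52% and 4.53% of all genes tested. The summed level of the markers lay between 1074 and 1487 CPM on MEF and between 781 and 2400 CPM in feeder-free culture, most of it COL1A1 and VIM. COL1A2, at 0.680 to 4.65 CPM on MEF and 0 to 0.414 CPM without feeders, and PRRX1, at 1.02 to 2.62 and 0 to 0.606 CPM, were lower in every line and listed at 0 in feeder-free A, while COL3A1 and POSTN were called higher. Of 5 primitive streak and mesoderm, 4 endoderm, 5 trophoblast and 4 neural markers, 3, 1, 3 and 2 were tested, and 0 were called in the unpaired fit (2 with an unadjusted p under 0.05 were higher and 1 lower). Among them EOMES, of the primitive streak, at 1.61 (adjusted p = 0.0307) and KRT7, of the trophoblast, at 1.46 (adjusted p = 0.0129) were called in the paired fit. The part of mouse feeder RNA, or of cells leaving the stem cell state, in the levels of the 10 genes was not tested. The methods describe removal of reads of a pure MEF sample for libraries on MEF only. If the deposited counts are from after that removal, counts on MEF alone would be lowered. The part of that removal in the higher feeder-free levels of the 10 genes was not tested.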

How the data were processed

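Total RNA of 8 bESC cultures was sequenced as paired 150 base reads. Per the methods, the authors trimmed reads with Trimmomatic, aligned them with STAR to ARS-UCD2.0, dropped optical duplicates and mapping qualities under 30, and removed reads of a pure MEF sample from libraries on MEF; whether the deposited table is from before or after that removal is not given in the sources used here. The deposited values are raw counts per gene from featureCounts (Subread 1.6.2, per the submitters' processing notes); whether strand was used and whether pairs or single reads were counted is not given in the sources used here. The pure MEF sample and the libraries from high oxygen are not analysed here. Of 32640 genes listed, 3 lacked values, and 0 columns were left unused; coordinates came from RefSeq, which matched 30268 symbols and all 10 genes.

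Counts were tested with edgeR 4.0.16 (R 4.3.3; glmQLFit, glmQLFTest, filterByExpr, TMM). Each line letter names the same cell line in both conditions and so pairs the libraries: deviations from the condition means correlated at 0.582 (A), 0.557 (C), 0.664 (D) and 0.421 (E) within lines, and at −0.523 to 0.249 between lines. Log2 ratios per line used a prior count of 2, which understates low genes. Libraries of a condition differed beyond sampling noise (smallest chi-square per degree of freedom 40.8 over 12 pairs). Alternatives were RLE, no scaling, other filters, DESeq2 1.42.0, limma-voom (limma 3.58.1), other fold thresholds, thinning and leaving out libraries or lines. The 10 genes and all lists were chosen with earlier results of these data known. Beyond the 10, named genes were those called unpaired, then those called paired by size, at most 8 per list, any gene of the partner, MYC and corepressor lists, and for FOS, JUN, EGR1 and MYC the 3 genes most alike; some genes that this rule names are not reported here.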

Additional observations from a re-analysis of the deposited data

Results flagged for a closer look

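Of 20 groups of 4 libraries, each being 1 of the 10 genes in 1 condition, 3 held a library that stood far from the other 3 by Dixon's criterion, where chance gives about 1 in 20. FOSB in MEF D was at −1.53 log2 CPM (0.310 CPM), against −0.95 to −0.90 in the other MEF libraries, and FOSB in feeder-free C was at −0.61 (0.622 CPM), against 0.11 to 0.19; both rest on few counts, 15 and 33. ATF3 in MEF D was at 4.45 log2 CPM (21.8 CPM), against 3.42 to 3.56, and line D was also the highest for ATF3 in feeder-free culture. JUNB in feeder-free D did not meet the criterion on the log2 scale.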

How the results depend on the processing

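The log2 fold changes of the 10 genes were positive under every alternative run, none reversed, and of 229 values 190 kept their side of the thresholds, 32 gained a call and 7 lost one, all 7 for FOS. Against 1 of the 10 called higher in the unpaired fit, the replicate block gave 5, a minimum of 10 counts in every library 2 (FOSL1 and EGR1, since FOS was not tested there), DESeq2 4 and DESeq2 with the block 8; leaving out libraries or lines gave 0 to 8. RLE, no scaling, no filter, limma-voom, both fold thresholds and thinning of feeder-free D each gave 1. Genes called higher numbered 114, against 869 with the block, 73 without a filter, 199 with 10 counts in every library, 695 in DESeq2, 1141 in DESeq2 with the block, 70 at an absolute log2 fold change of 1, and 0 to 918 when a library or line was left out. Genes called lower numbered 158, against 713, 97 without a filter, 516, 837 and 48 under the same settings (213 with 10 counts), 91 without scaling, and 0 to 733.

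The block moved the calls higher and lower of the other immediate early genes from 2 and 0 to 18 and 0, of AP-1 partners from 0 and 1 to 5 and 2, of the MYC network from 0 and 0 to 1 and 2, of upstream genes to 2 and 0, of AP-1 targets to 4 and 1, of heat shock genes to 1 and 0 and of fibroblast markers to 2 and 2; EGR corepressors and MYC targets stayed at 0. Unpaired fits without 1 library lost the FOS call except without feeder-free A, which gave 2 (FOS and FOSL1), with 259 genes higher and 231 lower. The other unpaired fits without 1 library called 0 to 1 genes higher and 0 to 5 lower. Paired fits without line A, C, D or E called 8, 4, 4 and 3 of the 10 and 918, 561, 376 and 662 genes higher, with 733, 496, 366 and 497 lower. The cause of these changes was not tested. Scaling moved the median of all genes by at most 0.05 on the log2 scale. Levels per longest transcript were not run, since transcript lengths were not used here. FOS on MEF (7 to 75 counts) and FOSB (15 to 113) are limited by depth.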
